A study of Dicentrarchus labrax with 16 samples.

Results

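Isolated CpGs are CpG sites of the European sea bass (Dicentrarchus labrax) genome that had no other measured CpG close by. A CpG counted as measured when it had 10 or more reads, and no more than the 99.9th percentile of its library, in all 6 libraries. It counted as isolated when it lay on a linkage group of the assembly dicLab v1.0c and no other measured CpG lay within 100 bp on either side. Under this rule 24529 CpGs were isolated, which is 7.45% of the 329245 measured CpGs on the 24 linkage groups and 5.16% of all 475516 measured CpGs. The other 304716 CpGs on the linkage groups are called the other CpGs in what follows. Methylation was measured by reduced representation bisulfite sequencing (RRBS) in muscle and testis of 3 wild adult males, with 1 library per tissue and fish. The fish were speared outside the reproductive season, the tissues were put into RNAlater on board, and no treatment was given. Libraries with the same number came from the same fish, and each library came from a whole piece of tissue that mixes cell types, so a level is an average over cells. The tissue labels of the RRBS libraries were not checked against marker genes here. Positions give the cytosine of the forward strand of each CpG.

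In vertebrate genomes most CpGs carry a methyl group on the cytosine, while clusters of closely spaced CpGs, often at gene starts, tend to be free of it. RRBS cuts DNA with MspI at CCGG and reads only inward from the ends of short fragments, so it samples CpG-rich DNA and leaves long stretches unread. Bisulfite turns unmethylated cytosine into a base read as T, and the methylation level of a CpG is the percent of its reads that still show C. An isolated CpG is therefore isolated among the measured sites, and unmeasured CpGs may lie beside it.

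Coverage set the precision of each level. The median number of reads at isolated CpGs was 54, 83 and 53 in muscle 1, 2 and 3, and 62, 78 and 75 in testis 1, 2 and 3. It was higher at the other CpGs, at 57, 147 and 58 in muscle and 78, 119 and 99 in testis. Of the isolated CpGs, 12.2 to 26.7% had under 30 reads, depending on the library. Isolated CpGs were nearly always read from 1 strand, with 11926 on the forward strand alone, 12070 on the reverse strand alone and 533 (2.17%) on both, against 10.4% on both for the other CpGs. The muscle libraries stood apart in how often a level was exactly 0 or exactly 100. At isolated CpGs this share was 39.5, 24.9 and 42.4% in muscle 1, 2 and 3 and between 9.47 and 11.6% in the testis libraries. Because muscle 1 and muscle 3 had the highest shares, values of fish 2 alone are given beside the main results.

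Isolated CpGs were mostly highly methylated in both tissues. The mean level was 68.1, 69.0 and 71.6% in muscle 1, 2 and 3 and 73.8, 74.1 and 74.8% in testis 1, 2 and 3. Muscle and testis libraries did not overlap, and the fish were in the same order in both. Levels over 80% were held by 52.5 ± 2.09% of isolated CpGs in muscle and 60.4 ± 0.421% in testis (SD, n = 3), while levels under 10% were held by 12.2 ± 1.82% and 6.48 ± 0.180%. The shape differed between tissues at the upper end: 40.9, 32.8 and 43.9% of isolated CpGs lay at 95 to 100% in muscle 1, 2 and 3, but only 24 to 25.6% in the testis libraries, where more sites lay between 80 and 95%.

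**Figure D1:**
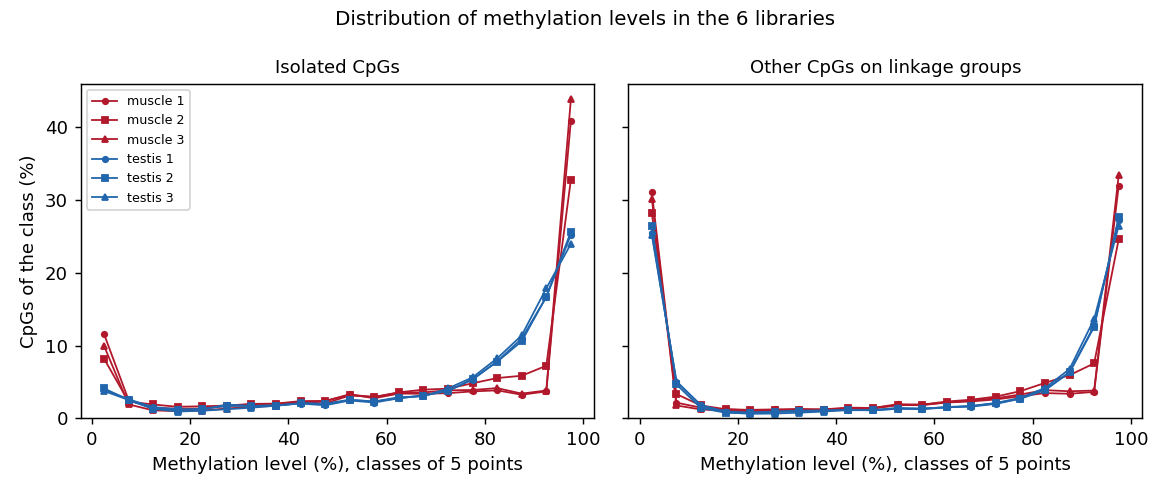
Share of CpGs (vertical axis, percent of the class) by methylation level (horizontal axis, classes of 5 points) in the 6 libraries, for isolated CpGs on the left and the other CpGs on linkage groups on the right. The peak at low levels is small among isolated CpGs, with 3.75 to 4.11% of them under 5% in testis and 8.21 to 11.6% in muscle, and in this class the peak at 95 to 100% is higher in the 3 muscle than in the 3 testis libraries. Among the other CpGs muscle 2 has 24.6% there, below the testis libraries.

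The rest of the linkage groups differed from isolated CpGs mainly in their unmethylated sites. The mean level of isolated CpGs was 15.7 ± 0.911 points above that of the other CpGs (SD over 6 libraries, range 14.5 to 16.6), which had 54.6 ± 1.07% in muscle and 57.8 ± 0.358% in testis. All 6 libraries showed this direction (two-sided exact sign-flip permutation test, p = 0.03125 over 6 libraries, the smallest they allow, and p = 0.25 over 3 fish, the smallest they allow). The share of sites under 10% differed by -22.1 ± 2.32 points (isolated minus other), and the other CpGs had 32.2% of sites there in muscle and 30.6% in testis. Isolated CpGs also had more sites over 80%, by 9.65 ± 0.764 points, more between 10 and 80%, by 12.5 ± 2.10 points, and more between 30 and 70%, by 8.07 ± 0.390 points. Levels of exactly 0 or 100 were less frequent at isolated CpGs, with a difference of -10.1 ± 1.75 points. Each of these 6 measures pointed the same way in 6 of 6 libraries, with the same exact p-values, and the Benjamini-Hochberg value over the 6 was 0.03125. In fish 2 alone the mean was 15.6 points higher and the difference in the share under 10% was -22.7 points. Among CpGs with 30 to 100 reads in every library, a matched range of depth, the differences were 13.4 and -19.5 points.

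Counts of sites that kept 1 state in every library gave the same direction for low and intermediate levels and the opposite one for high levels. In all, 777 isolated CpGs (3.17%) were under 10% in all 6 libraries, compared with 71612 of the other CpGs (23.5%). Over 80% in all 6 libraries were 5251 isolated CpGs (21.4%) and 24.9% of the other CpGs, and over 90% in all 6 were 2377 (9.69%) and 13.5%, although single libraries had a larger share of isolated CpGs over 80%. Intermediate levels, between 30 and 70% in all 3 testis libraries, were found at 2250 isolated CpGs (9.17%) and 5.22% of the other CpGs. In all 6 libraries 309 isolated CpGs (1.26%) kept such a level, against 0.831% of the other CpGs.

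The distance from an isolated CpG to the nearest measured CpG had a median of 204 bp, with quartiles at 142 and 1038 bp and a maximum of 54781 bp. Most members, 16033 of them (65.4%), had a measured CpG within 300 bp, and 6200 (25.3%) had none within 1000 bp. The near group had a geometry that members over 1000 bp lacked but that CpGs just below the limit shared. Of the 15583 isolated CpGs read on 1 strand with their nearest measured CpG at 101 to 300 bp, 15066 (96.7%) had it on the side toward which their reads ran. Of these, 14620 had a neighbour that was itself read on 1 strand. At 13125 of them (89.8%) that neighbour was on this side and also on the opposite strand, the layout of the ends of a fragment read inward. Members were counted, so CpGs that are each other's nearest enter from both sides. Over 1000 bp these shares were 51.2% and 10.4%. Among the other CpGs with their nearest measured CpG at 51 to 100 bp they were 97.5% and 95.8%. A wider search showed that 8504 members had a CpG within 100 bp that was listed in at least 1 library but missed the coverage limits, and 16025 (65.3%) had none listed at all.

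Among those 16025 CpGs methylation was higher still. Their mean level was 69.2, 70.8 and 72.7% in muscle 1, 2 and 3 and 75.6, 76.0 and 76.4% in testis 1, 2 and 3, which is 4.42 ± 1.04 points above the members with a listed neighbour (range 2.99 to 5.48). The difference had the same direction in 6 of 6 libraries (two-sided exact sign-flip permutation test, p = 0.03125 over libraries and 0.25 over fish). Their share of sites under 10% was lower, with a difference of -4.02 ± 1.07 points.

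Mean methylation rose with distance up to the limit of the rule and moved both down and up beyond it. In testis it was 53.0 ± 0.298% at CpGs whose nearest measured CpG was 1 to 10 bp away, 60.5% at 11 to 25 bp, 66.6% at 26 to 50 bp and 72.9% at 51 to 100 bp. Members at 101 to 200 bp had 74.7%, and those over 5000 bp had 75.7%. In muscle the same classes had 50.4 ± 0.855, 56.9, 62.3, 67.9, 69.97 and 71.0%. Members at 201 to 500 bp had lower means than those at 101 to 200 bp, 67.6% in muscle and 72.0% in testis. Those at 501 to 1000 bp had 66.5 and 71.3%, and those at 1001 to 2000 bp had 72.0 and 76.4%. At the limit itself the values were close: the 1611 CpGs at 91 to 100 bp had 68.9 ± 2.06% in muscle and 73.9 ± 0.483% in testis, and the 1570 members at 101 to 110 bp had 67.7 ± 1.89% and 72.7 ± 0.657% (SD, n = 3). The share of testis sites under 10% was 37.6% at 1 to 10 bp and, among the members, 7.09% at 101 to 200 bp, 8.56% at 201 to 500 bp, 7.91% at 501 to 1000 bp and 3.60% at 1001 to 2000 bp, reaching 2.88 ± 0.0467% over 5000 bp. In muscle it was 38.6% at 1 to 10 bp, 11.1% at 101 to 200 bp, 16.0% at 201 to 500 bp and 10.3 ± 1.52% over 5000 bp. Members far from other measured CpGs thus held fewer unmethylated sites than near members in testis, while the muscle values at both ends lay within their spread of each other, and the difference between tissues was not tested. Depth moved with distance, with a median of 98.5 reads at 101 to 200 bp and 51.2 over 5000 bp, and its part in these values was not tested.

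**Figure D2:**
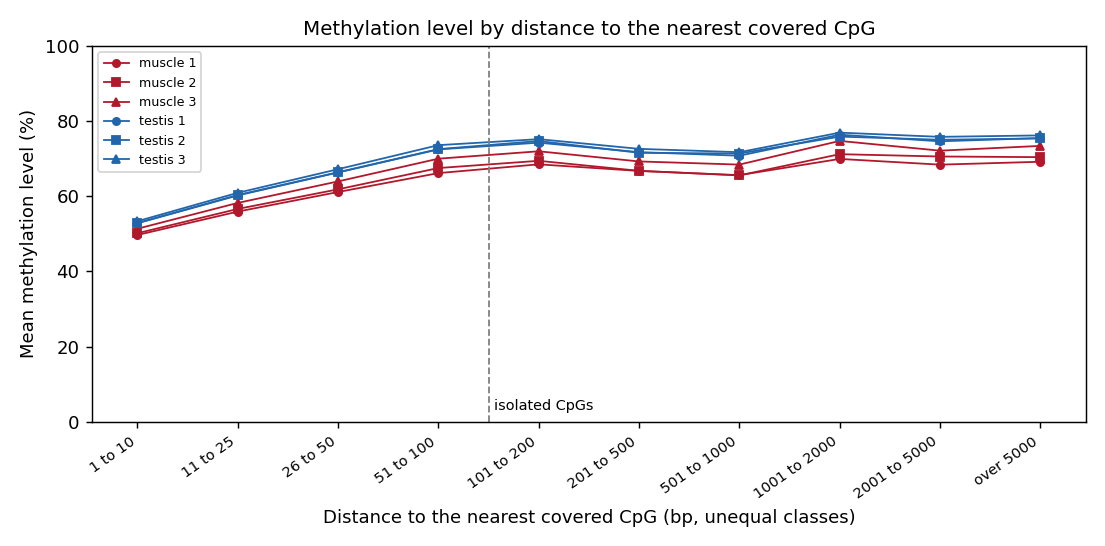
Mean methylation level (percent) of measured CpGs on linkage groups by distance to the nearest measured CpG (bp, classes of unequal width), with 1 line per library and isolated CpGs to the right of the dashed line. Levels climb from between 49.7 and 53.4% at 1 to 10 bp to between 68.5 and 75.2% at 101 to 200 bp, and the 3 testis lines lie above the 3 muscle lines in every class.

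The most distant members show the range of states. The CpG at position 13044834 of LG7 (reverse strand), 54781 bp from the nearest measured CpG, had levels of 0, 22.7 and 25% in muscle 1, 2 and 3 and 86.4, 88.4 and 80.9% in testis 1, 2 and 3, from 43 to 192 reads. Muscle and testis were far apart in each fish. The CpG at 15043342 of LG11 (forward strand, 50194 bp away) had 100, 38.5 and 56.1% in muscle and 50, 45.5 and 61.5% in testis, from 13 to 41 reads. Here the muscle libraries spanned the testis values. The CpG at 5924354 of LG20 (reverse strand, 47152 bp away) had 100, 63.9 and 98.9% in muscle and 78.1, 86.8 and 94.0% in testis, and the tissues overlapped. CpGs that missed the coverage limits were listed 928 bp from the site on LG7, 354 bp from that on LG11 and 223 bp from that on LG20. Whether these sites lie in genes was not analysed here, since no gene annotation of dicLab v1.0c was used.

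Some members far from other measured CpGs kept 1 level class in all 6 libraries. At the low end, the CpG at 6931972 of LG8 (24656 bp from the nearest measured CpG) had 5.26, 3.797 and 5.71% in muscle and 1.71, 1.12 and 1.23% in testis. A second, at 12197986 of LG16 (24315 bp), had 0, 3.45 and 4.55% in muscle and 6.56, 1.64 and 1.03% in testis. With the strands summed before the coverage limits this site read 25.9% in muscle 1, so its class there changes with the strands counted. At 14466837 of LG16 (35999 bp) every one of the 6 libraries read 100%, from 19 to 36 reads each. The CpG at 12283422 of LG19 (31854 bp) had 100% in the 3 muscle libraries and 96.1, 92.9 and 93.6% in testis. Intermediate levels were held at 14617223 of LG16 (45441 bp), with 42.4, 44.1 and 41.9% in muscle and 59.3, 45.7 and 50% in testis. At 9439294 of LGx (21698 bp) the levels were 56.2, 66.7 and 66.7% in muscle and 58.8, 55.0 and 66.7% in testis, from 12 to 30 reads. The tissues overlapped at the latter but not at the former. Not all of these sites are isolated among unfiltered calls: a CpG that missed the coverage limits was listed 9 bp from the site on LG8 and 26 bp from that on LGx. Such CpGs were also listed 174, 264 and 116 bp from the sites at 12197986, 14466837 and 14617223 of LG16 and 193 bp from that on LG19.

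Across tissues, isolated CpGs had a higher mean level in testis in every fish, by 5.71, 5.05 and 3.20 points in fish 1, 2 and 3. The mean difference was 4.65 points, with 69.6 ± 1.77% in muscle and 74.2 ± 0.473% in testis (exact permutation test on library means, two-sided, p = 0.1 and adjusted p = 0.12 over 6 measures). With 3 libraries against 3, p cannot go below 0.1. Testis minus muscle was -5.68 points for the share under 10% (-1.06 among the 533 CpGs read on both strands), 7.99 points for the share over 80% and -3.49 points for the share between 30 and 70%, with exact p = 0.1 for each. The share between 10 and 80% overlapped between tissues (35.4 ± 2.69% in muscle and 33.1 ± 0.253% in testis, exact p = 0.2). The tissue difference in mean level was 1.44 ± 0.589 points larger at isolated than at the other CpGs (SD over 3 fish, exact sign-flip permutation p = 0.25, the smallest possible). This last value turned to -0.939 when CpGs were weighted by their reads. The median level of the class differed between tissues by 3.34 points at isolated and 11.9 points at the other CpGs. The median of the tissue differences of single CpGs was larger at isolated CpGs, at 2.903 points against 0.912 points at the other CpGs. The direction thus changed with the measure, so no larger difference at isolated CpGs is shown.

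The tissue difference was present on each of the 24 linkage groups. It ranged from 3.67 points on LG16 to 6.02 points on LG24, with testis higher in all 3 fish on all 24. Isolated CpGs had their lowest muscle mean on LG4 (66.3%) and their highest on LG3 (72.8%). In testis the lowest was LG4 (70.9%) and the highest LG24 (78.5%). The share of measured CpGs that were isolated ran from 6.43% on LG8 to 8.28% on LG1A, and on all 24 their mean level was above that of the other CpGs.

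Differentially methylated cytosines (DMCs) were called per CpG with logistic regression on reads over all 475516 CpGs, and a call needed an adjusted p (Benjamini-Hochberg) under 0.01 together with a difference over 15 points. Testis was higher at 5757 isolated CpGs (23.5%), where the background over all CpGs tested was 11.7%. Muscle was higher at 2472 (10.1%), against a background of 4.26%. Among the other CpGs the shares were 13.4 and 5.15%. The excess was thus seen in both directions, and testis-higher calls outnumbered muscle-higher calls 2.33 to 1 at isolated CpGs and 2.60 to 1 at the other CpGs. With no limit on the difference, the shares were 39.4 and 24.4% at isolated and 34.4 and 17.9% at the other CpGs. The classes also differ in level: 6.33% of isolated and 30.5% of the other CpGs had a mean of 0 to 10% over the 6 libraries. The part of this in the excess was not tested. The median difference was 25.9 points at testis-higher members and -24.8 points at muscle-higher members. Between the muscle and testis libraries of fish 2 alone, 5356 members (21.8%, background 11.5%) passed these limits with testis higher and 2598 (10.6%, background 4.61%) with muscle higher, which compares 2 libraries without replicates and covers counting error only.

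Logistic regression treats reads as independent, and read counts from PCR-amplified libraries without molecular identifiers are not independent molecules, so calls were set beside the spread between libraries. The 3 libraries of each tissue did not overlap, with testis higher, at 2773 isolated CpGs (11.3%, background 12.5%). With muscle higher this held at 2759 (11.2%, background 6.60%). Among the other CpGs these shares were 11.8 and 7.48%. By this measure the isolated CpGs were near the background for testis-higher sites and above it for muscle-higher sites. Of the called members, 2506 testis-higher (43.5%) and 1659 muscle-higher CpGs (67.1%) had the same sign in all 3 fish. These are 10.2 and 6.76% of isolated CpGs, against backgrounds of 6.11 and 2.88%. Among called other CpGs, 52.7% of the testis-higher and 68.1% of the muscle-higher had the same sign in all 3 fish. Without the call, testis was higher in all 3 fish at 15.9% of isolated CpGs (other CpGs 16.4%, background 19.9%). Muscle was higher in all 3 at 14.7% (other CpGs 10.3%, background 9.44%). limma on log2 ratios of methylated to unmethylated reads, which measures the spread between libraries, called 0 isolated CpGs in either direction at the same limits (background 0%). At an unadjusted p under 0.05 it had 1759 testis-higher (7.17%, background 4.42%) and 1260 muscle-higher members (5.14%, background 2.09%). A quasi-binomial F test called 2 and 15 members (backgrounds 0.00904 and 0.0200%).

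**Figure D3:**
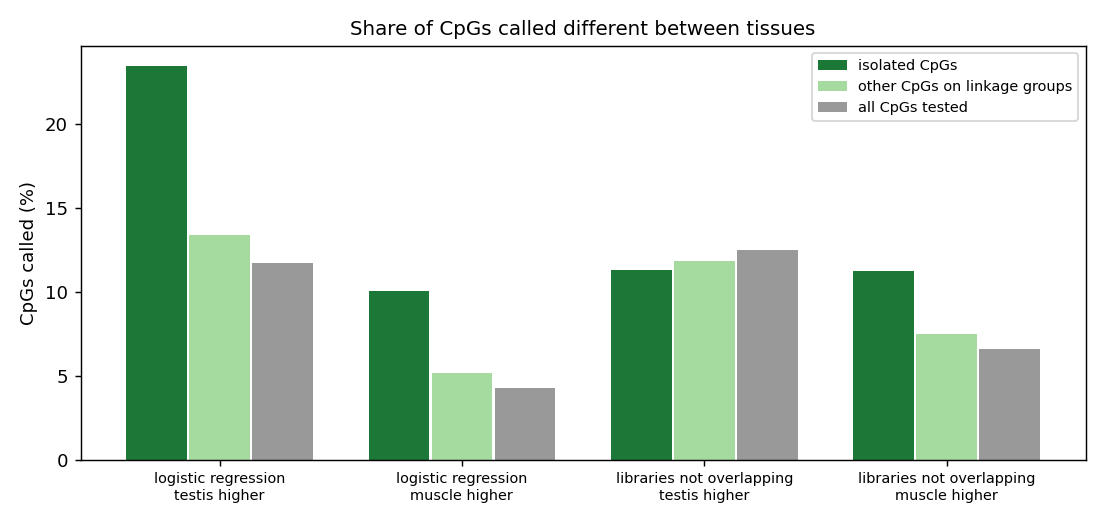
Share of CpGs (vertical axis, percent) called different between tissues, by logistic regression (left groups of bars) and by libraries of the tissues that do not overlap (right groups), for isolated CpGs, the other CpGs on linkage groups and all 475516 CpGs tested. By logistic regression the bars of isolated CpGs are the highest in both directions (23.5 and 10.1%), while for libraries that do not overlap with testis higher the 3 bars are 11.3, 11.8 and 12.5%.

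These calls varied little with distance within the members. Testis-higher shares lay between 22.3 and 25.5%, and muscle-higher shares between 8.84 and 11.8%, in the 6 distance classes from 101 bp to over 5000 bp. Closer CpGs had lower shares, from 10.6 and 4.14% at 1 to 10 bp to 21.8 and 7.79% at 51 to 100 bp. The share whose libraries did not overlap with testis higher behaved otherwise: it was 10.6% at 1 to 10 bp and 17.2% at 51 to 100 bp, and between 8.87 and 12.7% in the 6 classes of members. With muscle higher it was 6.85% at 1 to 10 bp, 8.83% at 51 to 100 bp and between 7.07 and 12.6% in the members' classes.

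Widest among testis-higher members with 30 or more reads in every library was the CpG at 16934126 of LG8 (forward strand), with 17.6, 6.98 and 0% in muscle 1, 2 and 3 and 97.5, 87.8 and 97.6% in testis 1, 2 and 3. Its mean difference was 86.1 ± 10.001 points (SD over 3 fish), from 34 to 49 reads. At 10811587 of LG17 (reverse strand) muscle had 0, 36.0 and 0.820% and testis 98.8, 93.5 and 89.4%. Muscle 2 stood above the other muscle libraries there, and the difference was 81.6 ± 21.5 points. At 3921656 of LG18-21 (reverse strand) muscle had 2.21, 2 and 51.4% and testis 92.5, 100 and 97.1%. At 11672676 of LG11 (reverse strand) muscle had 2.5, 2.40 and 31.9% and testis 92.3, 90.4 and 81.4%. In both of these muscle 3 was the high library, and the differences were 78.0 ± 28.2 and 75.8 ± 22.8 points.

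The muscle-higher members were led by the CpG at 4827776 of LG13 (reverse strand), with 88.2, 100 and 100% in muscle and 34.4, 3.23 and 37.8% in testis, a difference of -71.0 ± 22.8 points (testis minus muscle). At 14876841 of LG10 (forward strand) muscle had 100, 100 and 87.8% and testis 22.4, 21.2 and 43.5%. At 3542216 of LG15 (forward strand) muscle had 83.8, 72.2 and 98.3% and testis 13.3, 18.7 and 22.3%. The muscle libraries varied more than the testis libraries there, and the reverse was true at 14232878 of LG18-21 (forward strand), where muscle had 98.8, 100 and 99.3% and testis 24.7, 35.5 and 42.6%. The differences at these 3 sites were -66.9 ± 19.5, -66.7 ± 11.7 and -65.1 ± 8.70 points. These 8 CpGs were picked for their size of difference. The pool they came from held 1293 testis-higher and 669 muscle-higher members among the 12608 with 30 or more reads throughout. Its members were called by logistic regression and had tissue libraries that did not overlap. No background at that depth is given. Without that read limit, 8.17% of isolated CpGs met both conditions with testis higher (background 5.00025%). With muscle higher 5.64% did (background 2.37%). The nearest measured CpG lay 230, 4179, 265 and 224 bp from the testis-higher sites and 3341, 463, 170 and 114 bp from the muscle-higher sites, in the order given. CpGs that missed the coverage limits were listed 18 bp from the testis-higher site on LG18-21, 3 bp from the muscle-higher site on LG18-21, 191 bp from that on LG17, 175 bp from that on LG13 and 206 bp from that on LG10, and with those neighbours counted the sites on LG18-21 are not isolated. Complete switches were rare in both classes: 6 isolated CpGs (0.0245%) and 19 of the other CpGs (0.00624%) were under 10% in all muscle and over 80% in all testis libraries. The reverse was found at 0 isolated and 0 other CpGs.

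**Figure D4:**
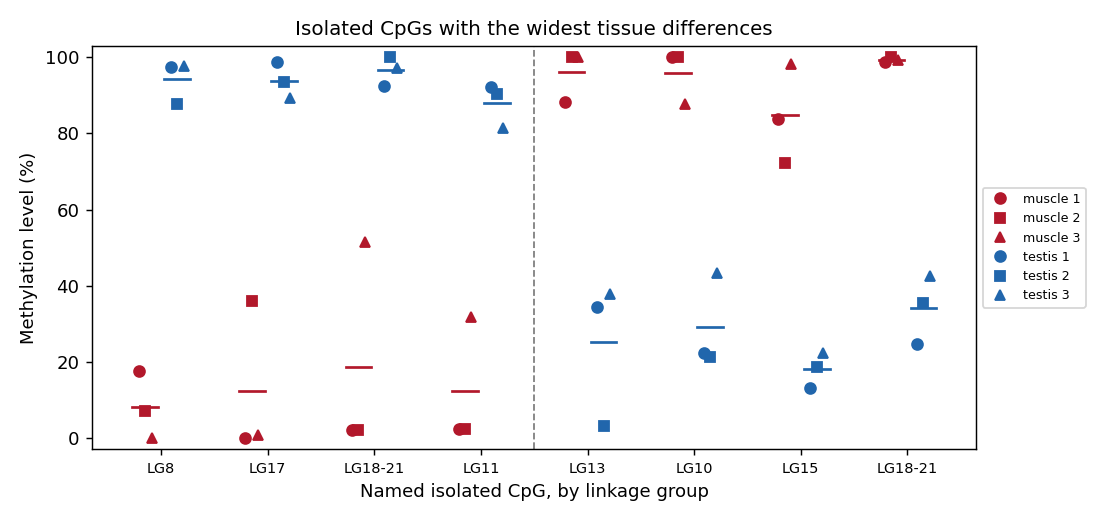
Methylation level (percent) in each library at the 8 named isolated CpGs with the widest tissue differences, labelled by linkage group, testis higher to the left of the dashed line and muscle higher to the right. Symbols are libraries and short bars are means of 3 libraries. Mean differences run from 75.8 to 86.1 points on the left and from -71.0 to -65.1 points on the right.

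The level of an isolated CpG followed that of its nearest measured CpG over short distances. Each member was set beside its nearest measured CpG, so CpGs that are each other's nearest enter from both sides. At 101 to 200 bp Pearson's r across 12023 members was 0.782 to 0.789 in the testis libraries and 0.489 to 0.605 in the muscle libraries, with the highest muscle value in muscle 2. It was 0.663 to 0.686 and 0.388 to 0.427 at 201 to 500 bp, and 0.481 to 0.494 and 0.286 to 0.360 at 501 to 1000 bp. From 1001 to 2000 bp it dropped to 0.153 to 0.186 in testis and 0.0937 to 0.119 in muscle, and from 2001 to 5000 bp it lay between -0.00317 and 0.0586 in the 6 libraries. CpGs 1 to 10 bp apart had 0.965 to 0.967 in testis and 0.898 to 0.935 in muscle. Where a CpG and its nearest measured CpG were read on 1 strand each, the strand was the same for 99.5% of CpGs at 1 to 10 bp and for 6.22% at 101 to 200 bp. The part of strand and of depth in the fall of r was not tested. These correlations are across CpGs within a library, which are not independent replicates.

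**Figure D5:**
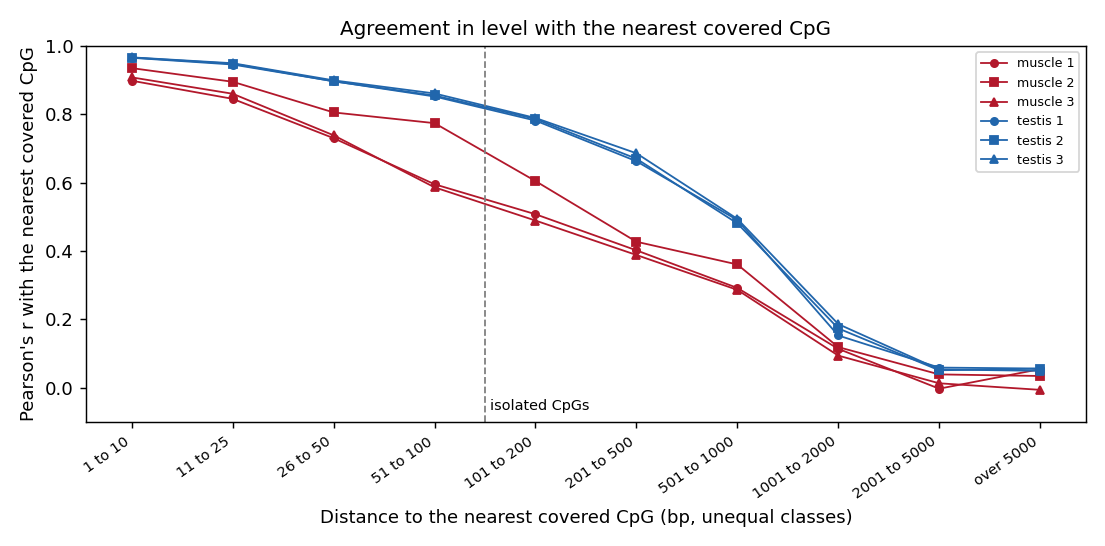
Pearson's r between the level of a CpG and that of its nearest measured CpG (vertical axis) by their distance (horizontal axis, bp, classes of unequal width), 1 line per library, with isolated CpGs to the right of the dashed line. The testis lines lie above the muscle lines up to 2000 bp, and from 2001 bp on all 6 lines lie between -0.00653 and 0.0586.

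Calls were shared with the neighbour in a similar way. For testis-higher members at 101 to 200 bp the nearest CpG was also called testis-higher in 35.7% of 2710 cases, against 22.5% for all isolated CpGs at that distance. Over 1000 bp the shares were 22.5% of 1532 and 20.1%. For muscle-higher members the nearest CpG was also muscle-higher in 35.6% of 1080 cases at 101 to 200 bp, against 9.04% for all isolated CpGs, and in 10.4% of 705 against 7.95% over 1000 bp. Neighbouring CpGs share their libraries and fish, and no test was made.

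Taken as a whole, isolated CpGs were less repeatable between libraries than the other CpGs, mostly in muscle. Pearson's r across CpGs between libraries of a tissue was 0.507 to 0.592 in muscle and 0.917 to 0.919 in testis, where the other CpGs had 0.823 to 0.865 and 0.973 to 0.974. The mean SD over the 3 libraries of a tissue was 17.5 points in muscle and 6.24 points in testis at isolated CpGs and 10.5 and 4.25 points at the other CpGs. Among CpGs of like mean level over the 6 libraries the SDs were closer in points. At a mean of 50 to 70% they were 28.6 and 9.45 points at isolated and 24.9 and 9.67 points at the other CpGs. At 0 to 10% they were 3.97 and 3.37 points against 2.25 and 1.71 points, which is not closer in proportion. Strands allow a check within a library. At the 533 isolated CpGs read on both strands, the strands differed on average by 26.0, 19.4 and 24.8 points in muscle 1, 2 and 3 and by 9.88, 9.94 and 9.52 points in testis 1, 2 and 3. The gap was wider at isolated than at the other CpGs by 7.96 ± 4.51 points (range 3.76 to 13.3, 6 of 6 libraries, two-sided exact sign-flip permutation test, p = 0.03125 over libraries and 0.25 over fish). In fish 2 alone it was 7.37 points. Lower depth and more intermediate levels moved with these values, and their part was not tested.

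Agreement between tissues in the order of the fish was no more frequent at isolated than at other CpGs. Among the 12608 with 30 or more reads throughout, 2148 (17.0%) had the same highest and the same lowest fish in muscle and testis, against 19.1% of the other CpGs and 21.4% of all CpGs of that depth. These counts include sites with ties. Among the 9594 without ties it was 1700 (17.7%), against 19.4% of the other CpGs and 22.7% of all CpGs. With 3 fish few orders are possible, so unrelated orders also agree at a share of sites. The 17.0% alone therefore shows no shared order, and whether it exceeds that share was not tested. With ties counted, the range over fish was also over 30 points in both tissues at 62 (0.492%, all CpGs 0.776%) and over 50 points at 11 (0.0872%, all CpGs 0.240%). The CpG at 20218648 of LG17 (reverse strand) had 25.8, 0.338 and 95.8% in muscle 1, 2 and 3 and 29.7, 0 and 90.3% in testis 1, 2 and 3. At 12457470 of LG1B (reverse strand) muscle had 0, 100 and 100% and testis 9.26, 96.1 and 95.5%, with muscle 2 and muscle 3 tied. Fish 3 was high and fish 2 low at the former, and fish 1 alone was low at the latter, in both tissues. These were the widest ranges of their kind among the 2148 and so carry no test. The nearest measured CpG lay 117 bp from the site on LG17 and 178 bp from that on LG1B. A CpG that missed the coverage limits was listed 9 bp from the site on LG17, which is not isolated with that neighbour counted.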

How the data were processed

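RRBS libraries of muscle and testis from 3 fish (6 libraries) were used. Per cytosine and strand, the authors deposited a read count (coverage) and the percent of those reads showing C. They had trimmed the reads, aligned them to the assembly dicLab v1.0c with BSMAP 2.90 in its RRBS mode and called methylation with the script that comes with it. Gene expression tables are per tissue and were not used here, and the authors' comparison columns (fold changes and p-values per gene) were not used either.

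A cytosine was kept if all 6 libraries covered it 10 times or more without passing their 99.9th percentile (528301 were). Reverse-strand positions were lowered by 1 and the strands summed, which gave 475516 CpGs. Methylated reads were recovered from coverage and percent. DMCs were called by logistic regression (likelihood ratio test) on coverage scaled to the largest median, with Benjamini-Hochberg adjustment over all CpGs. The study used methylKit with another adjustment of p. Library means were compared by exact permutation tests. limma added 0.5 to each read number. CpGs were named by fixed rules: the 4 widest non-overlapping DMCs per direction with 30 or more reads in every library, the 3 most distant members, the 2 most distant of each stable class, and the 2 with the widest like-ordered range over fish. A gene table of RefSeq was not used, since its build differs from the files'. Scripts were tested on simulated data.

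Alternatives changed the coverage limits, distance, strands, weighting, scaling, libraries and tests. Same-numbered libraries come from the same fish, as the study's supplement states, and deviations from the tissue mean correlated across all CpGs at 0.174 to 0.214 for the same fish and -0.117 to -0.0820 for different fish (isolated CpGs 0.0694 to 0.0853 and -0.0445 to -0.0274), and the numbers were taken as pairs. The members and lists were chosen with earlier results of these data known. The tests ran in scipy 1.17.1 with numpy 2.4.6 and pandas 2.3.3 under Python 3.11.15, plots in matplotlib 3.10.9, and limma 3.58.1 in R 4.3.3. Intervals and tests on reads cover no more than counting error. Scaling to the largest median raised the reads of the libraries with lower medians above those counted, so p-values of the logistic regression understate that error. Without scaling, 5420 members were called testis-higher (22.1%, background 11.2%) and 2204 muscle-higher (8.99%, background 3.82%).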

Additional observations from a re-analysis of the deposited data

How the results depend on the processing

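The mean level of isolated above other CpGs, the tissue difference of isolated CpGs and their shares under 10% kept their direction under every alternative run, but the tissue difference in the share under 10% went from -5.68 to -1.06 points among CpGs on both strands. The tissue difference of isolated minus other CpGs turned to -0.939 with pooled reads. Counts of called members (testis higher, then muscle higher) were 3047 and 1392 (24.4 and 11.1% of members) at a distance limit of 200 bp and 1772 and 800 (24.4 and 11%) at 500 bp, where there are fewer members and the background stays 11.7 and 4.26%. They were 118 and 44 (22.1 and 8.26%, other CpGs 9.30 and 3.29%) on both strands, 3035 and 1221 (12.4 and 4.98%, background 5.61 and 2.05%) for differences over 25 points, 9673 and 5995 (39.4 and 24.4%, background 33.5 and 15.4%) with no limit, 0 and 0 with limma, with or without the replicate block, and 2 and 15 with the quasi-binomial test. With fish as a replicate block in the logistic regression they were 5656 and 2415 (23.1 and 9.85%, background 11.6 and 4.19%), and the sign-flip within fish gave the tissue difference of 4.65 points an exact p of 0.25, the smallest 3 fish allow. No other result was fitted with the block.

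Leaving out 1 replicate number gave 5585 to 6240 testis-higher members (22.8 to 25.4%, background 11.5 to 13.5%). Muscle-higher members were then 2650 to 2957 (10.8 to 12.1%, background 4.68 to 5.49%), above the 2472 called with all libraries. The difference of isolated from other CpGs stayed within 15.5 to 15.9 points for the mean, -22.4 to -21.8 for the share under 10%, 11.9 to 12.8 for the share from 10 to 80% and 7.64 to 8.25 for the strand gap, with exact p = 0.125, the smallest 4 libraries allow. The correlation with the neighbour at 101 to 200 bp in testis was 0.776 with a coverage minimum of 5, 0.805 with 20, 0.795 with strands summed first and 0.753 with neighbours listed in any library. In muscle it was 0.616 on both strands and, chosen after seeing the data, 0.605 in fish 2 alone. The level at 12197986 of LG16 was 6.79% on average with strands summed first. The cause of these changes was not tested. Strand gaps could not be had for CpGs on 1 strand or with strands summed first, nor the neighbour correlation at limits of 200 and 500 bp. Depth limits single levels: with under 30 reads at 12.2 to 26.7% of members, small differences at 1 CpG were not detectable.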

Other observations

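Grouped by their mean level over the 6 libraries, isolated CpGs had their widest tissue differences at 50 to 90%, and so did the other CpGs. The mean difference at 50 to 70% was 9.77 points at isolated and 8.95 points at the other CpGs. At 70 to 90% these values were 7.81 and 8.89 points. Members with a mean of 50 to 70% (3664, 14.9%) had 56.2 ± 4.70% in muscle and 66.0 ± 1.22% in testis, and testis was higher by 13.6, 9.18 and 6.48 points in fish 1, 2 and 3. At 70 to 90% (9112, 37.1%) it was higher by 8.52, 7.77 and 7.13 points. At 30 to 50% (1890, 7.71%) the differences were 9.16, 7.46 and -0.651 points, with no common sign, and at 10 to 30% (1050, 4.28%) they were 2.91, 2.896 and 1.22 points. Members at 90 to 100% (7260, 29.6%) had testis minus muscle values of -1.51, 0.0319 and -1.80 points, with no common sign. At the lowest levels, 0 to 10% (1553, 6.33%), testis was higher by 1.96, 1.40 and 1.80 points. The spread between muscle libraries was widest in the middle, with a mean SD of 28.6 points at 50 to 70% against 9.45 points in testis. The same mean was used to group the CpGs, so these values are a description.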
